A study of Mus musculus with 12 samples.

Results

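The genes described here are 10 transcripts that mark pregranulosa cells and the other somatic lineages of the gonad, namely Foxl2, Kitl, Amhr2, Irx3, Irx5, Nr5a1, Wt1, Gata4, Emx2 and Nr2f2. They were taken by name from the deposited count matrix and are 10 of its 54532 gene rows. All 10 were found, all are annotated as protein coding, and all 10 passed the filter on low counts in every comparison. Ovaries came from mouse fetuses carrying the Tg(Pou5f1-EGFP)2Mnn transgene, in which GFP is driven by Pou5f1 (OCT4) regulatory sequence and marks germ cells. Pregnant dams received either dexamethasone (dex, a synthetic glucocorticoid receptor agonist) at 10 μg per g of body weight or an equal volume of saline, injected intraperitoneally once a day from E12.5 (embryonic day) on, with the last injection and the collection of ovaries on E15.5. Flow cytometry separated germ cells (GFP-positive) from all other ovarian cells (GFP-negative, here somatic cells), giving 4 groups of 3 biological replicates: somatic saline, somatic dex, germ saline and germ dex. Per the study's methods, each replicate was a pool of ovaries from 2 or more litters dosed independently, so the spread between replicates is that between pools and not between fetuses. The somatic groups hold every GFP-negative cell of the ovary, and no group is a purified pregranulosa population.

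During ovary formation, cells of the coelomic epithelium that express Wt1, Gata4, Emx2 and Nr5a1 build the gonadal primordium, and part of their descendants become pregranulosa cells, the supporting cells that enclose oocytes. FOXL2 is the forkhead factor of the ovarian supporting lineage and holds its identity against the testicular Sertoli fate. IRX3 and IRX5 are homeodomain factors of pregranulosa cells. KIT ligand, made by the supporting cells, signals to KIT on germ cells. AMHR2 is the type II receptor for anti-Müllerian hormone, and NR2F2 (COUP-TFII) marks the interstitial stroma, from which steroid-producing cells arise.

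Proximal promoter sequence (250 bases before the RefSeq start, GRCm38.p6) was given for 6 of the 10 genes, which are Foxl2, Kitl, Amhr2, Irx3, Emx2 and Nr2f2. Of these, 2 are shown because they lie wholly outside the annotated gene and because Amhr2 had one of the lowest and Nr2f2 the highest log2 fold change after dex in the somatic results below. Capitals mark matches to the motifs searched, and both sequences read 5′ to 3′ on the strand of the gene. Amhr2 lies on the plus strand at chr15:102445117-102445366 and Nr2f2 on the minus strand at chr7:70366747-70366996.
Amhr2: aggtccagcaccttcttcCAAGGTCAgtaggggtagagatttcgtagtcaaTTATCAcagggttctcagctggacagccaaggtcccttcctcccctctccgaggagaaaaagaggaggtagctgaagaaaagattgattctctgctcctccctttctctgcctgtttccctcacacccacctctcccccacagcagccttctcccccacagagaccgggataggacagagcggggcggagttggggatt
Nr2f2: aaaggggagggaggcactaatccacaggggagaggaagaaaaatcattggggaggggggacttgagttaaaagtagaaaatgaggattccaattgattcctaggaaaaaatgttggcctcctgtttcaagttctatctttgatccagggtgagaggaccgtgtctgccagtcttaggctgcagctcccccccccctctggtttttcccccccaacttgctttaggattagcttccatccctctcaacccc
The motifs searched, on both strands, were CAAGGTCA (bound by NR5A1), TGATAA and AGATAA (bound by GATA factors), GTAAACA (bound by forkhead factors) and AGAACA (a glucocorticoid receptor half-site). In Amhr2, CAAGGTCA lay 232 to 225 bases before the start, a motif held by 1.33% of 32851 promoters of this length. TGATAA lay 199 to 194 bases before the Amhr2 start on the opposite strand, and 7.94% of promoters held it. Nr2f2 and the promoters of Foxl2, Kitl, Irx3 and Emx2 held no match to any of the 5 motifs, which says only that these letters are not in this window. The shares of all promoters were 9.99% for AGATAA, 3.17% for GTAAACA and 16.1% for AGAACA. A match is a string of letters and was not tested for binding.

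Library depth ranged from 14658503 to 18245507 counts assigned to genes. Levels are CPM, counts scaled to library size with TMM factors, and a floor of 3 counts corresponded to 0.169 to 0.201 CPM. This floor covers counting error only. The sort was checked with Pou5f1, at 14.2 to 25.8 CPM in germ cell libraries and 0 to 0.121 CPM in somatic libraries, and with the stromal collagen gene Col1a1, at 6149 to 8032 CPM in somatic and 27.2 to 57.6 CPM in germ cell libraries. Markers of other cell types in the GFP-negative gate were present in every somatic library, with summed levels of 278 to 354 CPM for 6 endothelial genes, 43.2 to 226 CPM for 6 macrophage genes, 534 to 660.3 CPM for 6 perivascular genes, 3099 to 15380 CPM for 5 erythroid genes and 50.1 to 80.8 CPM for 5 mesonephric genes. Surface epithelium genes summed to 416 to 624 CPM over 6 genes, and 7 germ cell genes to 2.89 to 20.6 CPM.

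The first question was how strongly the gonadal somatic genes were expressed in the fetal ovary. All 10 were readily detected in the somatic cells, and no somatic library held fewer than 218 counts of any of them. To compare genes with each other the deposited FPKM values, which are scaled per transcript length, were used for the 3 somatic saline libraries. Amhr2 was highest at 76.2 ± 10.6 FPKM (SD, n = 3), and Wt1, the zinc finger factor of the coelomic epithelium and its descendants, followed at 75.1 ± 1.06 FPKM. The ranges of these 2 genes overlapped, so their order is not resolved. Gata4, a zinc finger factor needed for the genital ridge to thicken, stood at 42.2 ± 3.05 FPKM and overlapped with Nr2f2 at 38.1 ± 1.62 FPKM. Nr2f2 did not overlap with Kitl at 35.4 ± 1.74 FPKM. Its range of 36.79 to 39.93 FPKM did overlap with that of Emx2, 29.59 to 37.64 FPKM. Kitl, Emx2 at 34.0 ± 4.07 FPKM and Irx3 at 30.6 ± 1.64 FPKM followed as neighbours whose ranges overlapped. Foxl2, at 19.9 ± 1.56 FPKM, and Nr5a1 (steroidogenic factor 1), at 17.1 ± 1.95 FPKM, overlapped with each other and lay below Irx3 without overlap. Irx5 was lowest at 6.50 ± 0.293 FPKM and lay below all the others.

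**Figure D1:**
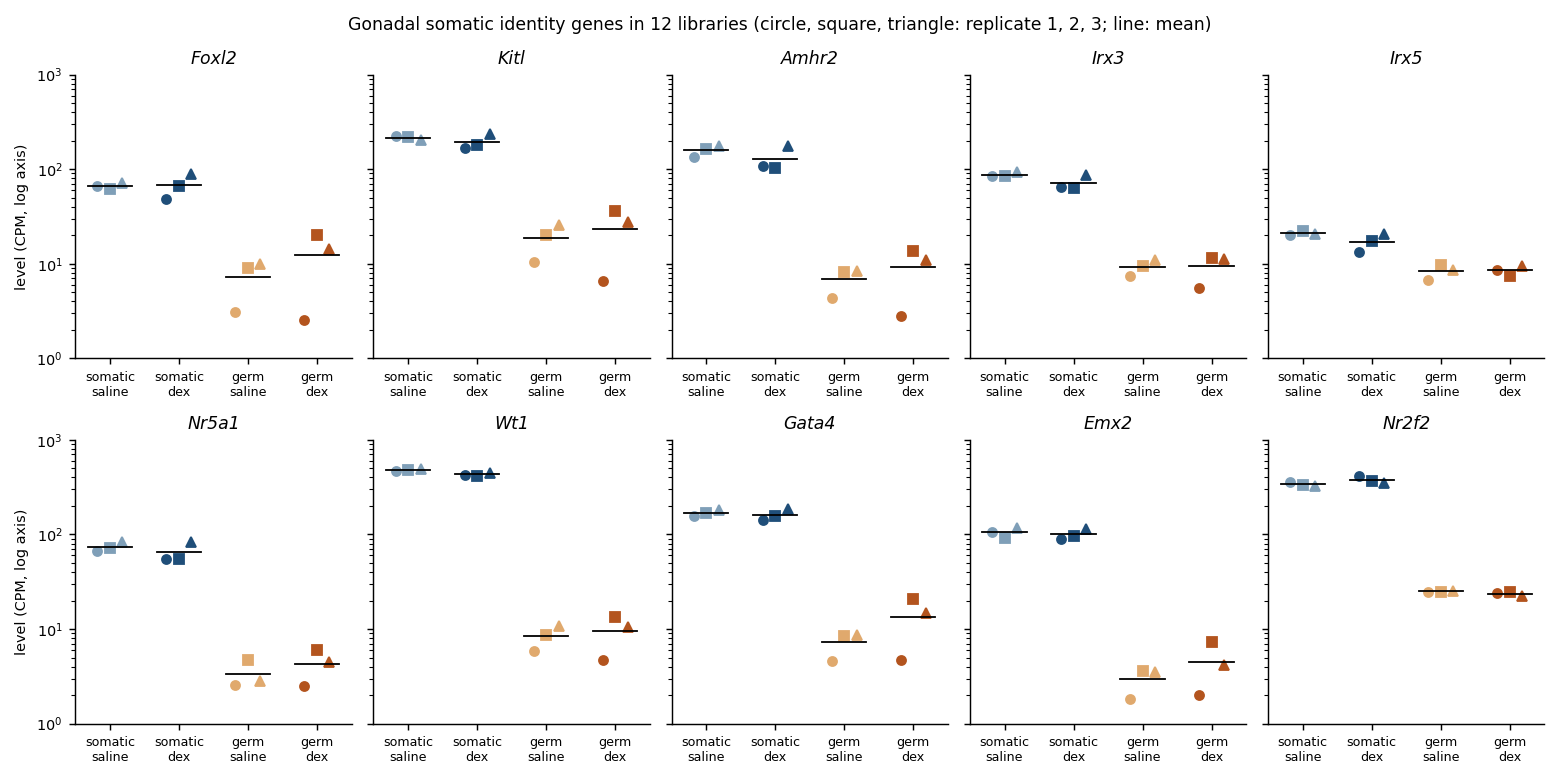
Level of each of the 10 genes in every library, in CPM on a log axis, by group; circles, squares and triangles are replicates 1, 2 and 3 and the line is the mean of 3. Somatic libraries stand above germ cell libraries for every gene, and germ cell replicate 1 lies low in both treatments for most genes but not for Nr2f2.

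The second question was whether dex altered these genes in the somatic cells. None of the 10 passed the test (edgeR quasi-likelihood, Benjamini-Hochberg adjusted p-value at most 0.05 over all genes tested), where 8.18% of 16556 genes tested did. Of the 10, 2 had an unadjusted p under 0.05, against 20.9% of all genes, and DESeq2 called 1, Wt1. The median log2 fold change of the 10 was -0.16, beside 0.000142 over all genes tested. In bulk RNA, fewer cells of a type and less RNA per cell cannot be told apart, and this holds for each value below.

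Foxl2 (chromosome 9, 98955288 to 98958543, plus strand, GRCm38) measured 66.9, 61.6 and 71.8 CPM in somatic saline replicates 1 to 3 and 48.8, 65.6 and 89.8 CPM in somatic dex replicates 1 to 3. The dex libraries thus spanned the whole saline range, with replicate 1 below it and replicate 3 above it. The log2 fold change was 0.02 ± 0.16 (SE, adjusted p = 0.956, edgeR), with a 95% interval from -0.32 to 0.36. The interval leaves room for changes of moderate size in either direction, so constancy of Foxl2 was not shown.

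Kitl (chromosome 10, 100015630 to 100100416, plus strand) encodes the ligand of KIT. Its level was 223, 220.5 and 203 CPM after saline and 168, 178 and 232 CPM after dex. Dex replicates 1 and 2 lay below all saline libraries and replicate 3 above them. The log2 fold change was -0.16 ± 0.10 (SE, adjusted p = 0.403, edgeR). Without dex replicate 3 it was -0.32 and passed the test (adjusted p = 0.00616, edgeR).

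Amhr2 (chromosome 15, 102445367 to 102454633, plus strand) measured 133, 164 and 176 CPM after saline and 108, 104 and 175 CPM after dex. Again 2 dex libraries lay below every saline library, and replicate 3 sat within the saline range. The log2 fold change was -0.30 ± 0.16 (SE, adjusted p = 0.33, edgeR), with a 95% interval from -0.64 to 0.05. Without dex replicate 3 it was -0.58 and called (adjusted p = 0.000433, edgeR). With no low-count filter (adjusted p = 0.000762) and with the replicate number as a block (adjusted p = 0.0494) the edgeR test also called Amhr2 lower.

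Irx3 and Irx5 are neighbouring members of the Iroquois family of homeobox genes on chromosome 8 (91798525 to 91802067, minus strand, and 92357625 to 92376286, plus strand). Irx3 measured 84.7, 84.5 and 92.6 CPM after saline and 64.2, 63.3 and 86.0 CPM after dex. The third dex library alone reached the saline range. Its log2 fold change, -0.30 ± 0.10 (SE), was of nearly the same size as those of Amhr2 and Irx5, with an unadjusted p of 0.0117 and an adjusted p of 0.101 (edgeR). It was called lower without dex replicate 3 (-0.46, adjusted p = 0.000485), with no low-count filter (-0.31, adjusted p = 0.00189) and with the replicate block (-0.31, adjusted p = 0.0185), each by edgeR.

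Irx5 stood at 20.1, 22.1 and 20.6 CPM after saline and 13.2, 17.6 and 20.5 CPM after dex. The groups overlapped through dex replicate 3. Its log2 fold change of -0.30 ± 0.15 (SE, adjusted p = 0.284, edgeR) did not pass. The ratio of Irx3 to Irx5 counts ran from 3.83 to 4.49 after saline and from 3.60 to 4.88 after dex, so the 2 groups overlapped in this ratio.

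The factors of the early gonad gave small values. Nr5a1 (chromosome 2, 38692656 to 38714542, minus strand) measured 67.6, 71.9 and 84.0 CPM after saline and 55.2, 54.5 and 84.0 CPM after dex, with a log2 fold change of -0.21 ± 0.14 (SE, adjusted p = 0.44, edgeR). As for Kitl, dex replicates 1 and 2 fell below the saline range while replicate 3 did not, and without it Nr5a1 was called lower (-0.44, adjusted p = 0.00326, edgeR). Wt1 (chromosome 2, 105126529 to 105173616, plus strand) measured 472, 480.4 and 486 CPM after saline and 429, 419 and 447 CPM after dex.

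Wt1 was the only one of the 10 whose dex and saline libraries did not overlap, where 25.4% of all genes tested had no overlap in either direction and 11.9% were lower without overlap. Its libraries were also the most tightly grouped of the 10, with a coefficient of variation of 1.49% after saline and 3.37% after dex. The log2 fold change was -0.16 ± 0.06 (SE, unadjusted p = 0.0201, adjusted p = 0.141, edgeR), and DESeq2 placed it on the other side of the threshold (-0.16, adjusted p = 0.0396). In simulated data for this comparison 62.9% of genes changed by 0.5 on the log2 scale were recovered, and changes as small as that of Wt1 were not simulated. The genes changed there were all well counted, and every gene was given the same dispersion.

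Gata4 (chromosome 14, 63198922 to 63271692, minus strand) measured 158, 169 and 183 CPM after saline and 143, 157 and 185 CPM after dex. Emx2 (chromosome 19, 59458372 to 59465357, plus strand), a homeodomain factor of the urogenital ridge, measured 107, 91.8 and 116 CPM after saline and 89.3, 97.2 and 114 CPM after dex. The groups overlapped for both genes, and both log2 fold changes were -0.07, with SE of 0.09 for Gata4 and 0.10 for Emx2 (adjusted p = 0.704 and 0.729, edgeR). Neither gene was called under any alternative tried in the somatic cells.

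Nr2f2 (chromosome 7, 70351944 to 70366735, minus strand), the stromal factor, ran the other way. It measured 354, 335 and 327 CPM after saline and 418, 364 and 350 CPM after dex. The highest library was dex replicate 1 and the groups overlapped narrowly, since dex replicate 3 lay below saline replicate 1. The log2 fold change was 0.15 ± 0.07 (SE, adjusted p = 0.262, edgeR), with a 95% interval from -0.01 to 0.31.

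**Figure D2:**
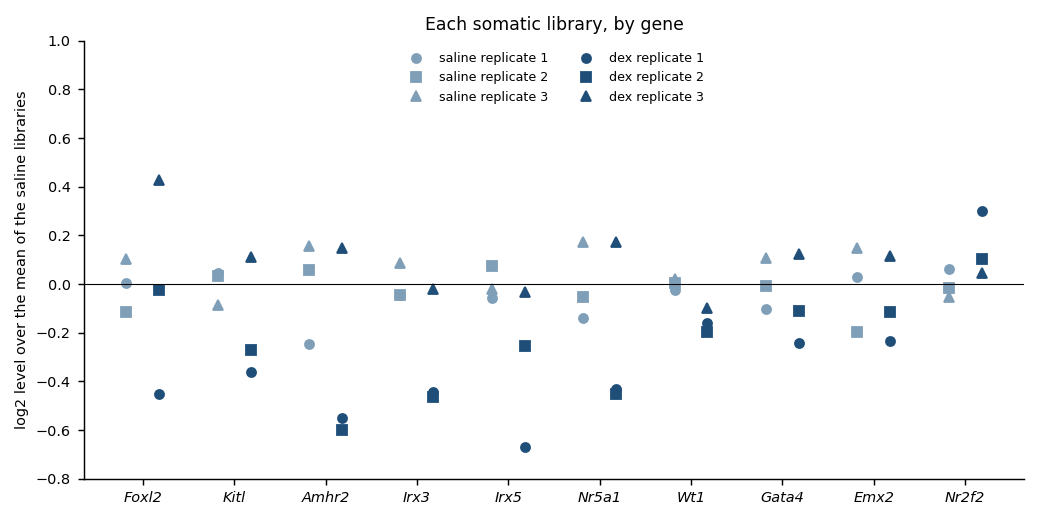
Log2 level of each gene in each of the 6 somatic libraries relative to the mean of the 3 saline libraries; light marks are saline, dark marks dex, and circles, squares and triangles are replicates 1, 2 and 3. Dex replicate 3 is the highest dex library for every gene but Nr2f2, for which it is the lowest.

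The dex libraries differed among themselves along a line shared by most of the 10 genes. Dex replicate 3 held the highest of the 3 dex values for 9 of the 10, where 36.3% of all genes tested had their highest dex value there, and for Nr2f2 it held the lowest, as for 33.4% of all genes tested. The ratio of Foxl2 to Nr2f2 counts was 0.117, 0.18 and 0.257 in dex replicates 1 to 3, against 0.189, 0.184 and 0.22 after saline. The dex libraries thus reached both below and above the saline libraries in this ratio. Dex replicate 3 was also the highest dex library for 10 of 11 further pregranulosa genes and 6 of 6 surface epithelium genes. It was the lowest for 12 of 13 stromal genes, 5 of 6 perivascular genes, 5 of 5 erythroid genes and 4 of 6 endothelial genes. Of 12 bipotential gonad genes, 7 had their lowest dex value there and 4 their highest. Other lists were split, with 5 of 9 Sertoli genes highest and 2 lowest, and 4 of 10 steroidogenic genes highest and 4 lowest. Haemoglobin transcripts took 0.331% of the counts of dex replicate 3, against 0.737 to 1.60% in the other 5 somatic libraries. The part of cell composition in the values of dex replicate 3 was not tested. Without this library 4 of the 10 genes, Kitl, Amhr2, Irx3 and Nr5a1, were called lower after dex. Each of the 4 had its highest dex value in this library, so leaving it out lowered their dex means. Calls over all genes also rose, from 1354 (8.18% of 16556 tested) to 1881, both in either direction. The share of all genes called lower without this library was not counted, so these calls have no background share beside them. Without any 1 of the other 5 somatic libraries none of the 10 was called.

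Genes whose profile over the 6 somatic libraries lay closest to that of Foxl2, among 10572 genes tested with a mean above 10 CPM, were Renbp (Pearson r = 0.98, n = 6 libraries), Rnf128 (r = 0.978) and Bcl11a (r = 0.978). For Nr2f2 they were Sfi1 (r = 0.992), Eri1 (r = 0.992) and Tbcc (r = 0.989). These values describe likeness over 6 libraries among which dex replicate 3 stands apart, and with this many genes searched, high values arise readily.

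**Figure D3:**
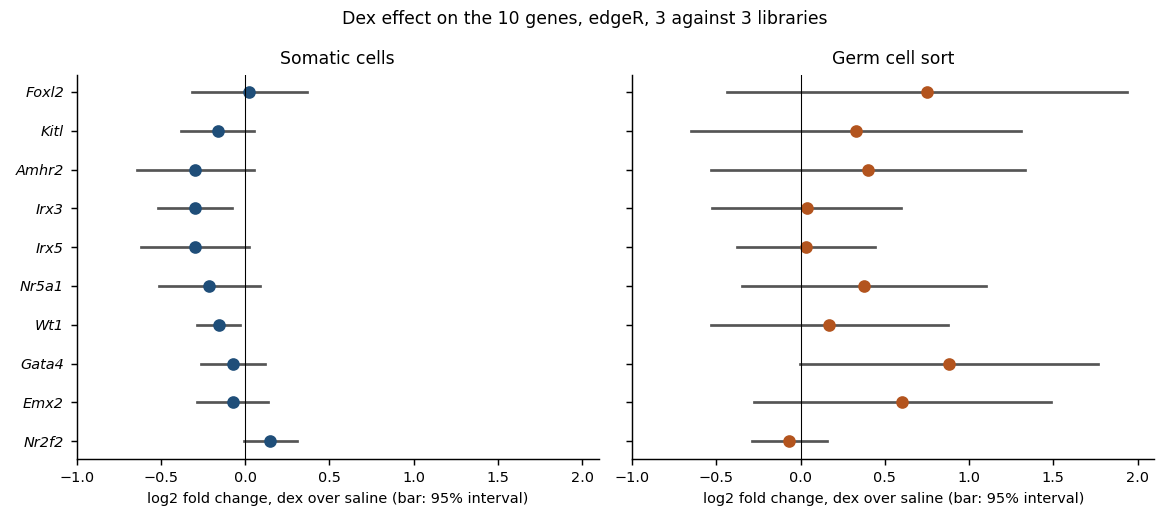
Log2 fold change, dex over saline, of the 10 genes in somatic cells (left) and in the germ cell sort (right), edgeR, 3 against 3 libraries; points are estimates and bars 95% intervals. The interval is wider in the germ cell sort than in somatic cells for each gene, and none of the 20 estimates passed the test after adjustment.

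Related genes gave a mixed picture in the somatic cells. Of 11 other pregranulosa genes, 1 fell and none rose, with a median log2 fold change of -0.14, and the gene that fell was Wnt4, a WNT ligand of the ovarian programme (-0.24 ± 0.06 SE, adjusted p = 0.0373, edgeR). Wnt4 measured 180, 182 and 192 CPM after saline and 148, 157 and 166 CPM after dex, without overlap, but its call was lost when any 1 library other than dex replicate 3 was left out (adjusted p = 0.0745 to 0.138) and in 1 fit of all 12 libraries (adjusted p = 0.613). Of 12 bipotential gonad genes, 2 rose and none fell (median 0.11): Insr, the insulin receptor (0.44 ± 0.06 SE, adjusted p = 0.000371), and Gadd45g, a stress-inducible signalling gene (0.39 ± 0.10 SE, adjusted p = 0.0301). The call of Gadd45g was lost without any 1 library other than dex replicate 1 (adjusted p = 0.0562 to 0.142). Of 13 stromal genes, 4 rose and 2 fell (median 0.03). Those that rose included Pdgfra, a growth factor receptor of the stroma (0.62 ± 0.07 SE, adjusted p = 0.000101), and Gli1, a hedgehog target (0.72 ± 0.14 SE, adjusted p = 0.00731). Without saline replicate 3 the call of Gli1 was lost (adjusted p = 0.0591).

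Of the Sertoli genes, 7 of 9 were tested and 1 rose, Cyp26b1, which encodes a retinoic acid degrading enzyme (0.74 ± 0.12 SE, adjusted p = 0.00159, edgeR). None of the 8 steroidogenic genes tested, of 10, passed the test, none had an unadjusted p under 0.05 (edgeR), DESeq2 called none, and the median was -0.04. None of the 6 surface epithelium genes or 5 mesonephric genes passed in edgeR or DESeq2, with 1 and 0 at an unadjusted p under 0.05 (edgeR). Among markers of other cell types, 4 of 6 macrophage genes fell, including Adgre1 (-1.78 ± 0.32 SE, adjusted p = 0.00346), Cx3cr1 (-1.38 ± 0.23 SE, adjusted p = 0.00198) and Csf1r (-1.31 ± 0.26 SE, adjusted p = 0.00634). Of 6 endothelial genes, Cdh5 and Tie1 fell (-0.50 and -0.65) and Emcn rose (0.43). These endothelial calls were lost without single libraries, Cdh5 without saline replicate 3 (adjusted p = 0.0597), Tie1 without saline replicates 2 or 3 (adjusted p = 0.0529 and 0.0837) and Emcn without saline replicates 1 or 2 or dex replicates 1 or 2 (adjusted p = 0.119 to 0.203). Of 6 perivascular genes, Cspg4 rose (1.06) and Mcam fell (-0.45).

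None of the 5 erythroid genes passed in edgeR or DESeq2, with 0 at an unadjusted p under 0.05 (edgeR). Of 7 germ cell genes 4 were tested and 1 rose, Dazl (3.43 ± 0.21 SE, adjusted p = 2.92e-07, edgeR), from 0.971 to 1.35 CPM after saline to 12.6 to 12.9 CPM after dex, against 943 to 1118 CPM in germ cell libraries. Of 4 adrenal genes 1 was tested and rose, Mc2r, the corticotropin receptor (2.20 ± 0.27 SE, adjusted p = 0.000192, edgeR). The part of these shifts in the values of the 10 genes was not tested.

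Antisense transcripts overlap 5 of the 10 genes, and since the strand setting of the counting is not given in the sources used here, their reads cannot be told apart with certainty. Foxl2os, which shares 12 bases with Foxl2, measured 22.8 to 23.0 CPM after saline and 15.4 to 26.0 CPM after dex in somatic cells (log2 fold change -0.28 ± 0.17 SE, adjusted p = 0.414, edgeR), and like its neighbour stood highest in dex replicate 3. It was called lower without that library (-0.57, adjusted p = 0.0057). Irx3os shares 1653 bases with Irx3 and measured 6.10 to 9.16 CPM in somatic libraries (-0.33 ± 0.17 SE, adjusted p = 0.308, edgeR). Emx2os (264 bases shared with Emx2) gave 0.03 ± 0.12 (SE, adjusted p = 0.934) and B130024G19Rik (1826 bases shared with Nr2f2) gave 0.04 ± 0.09 (SE, adjusted p = 0.88). Nr5a1os, with 1867 bases shared with Nr5a1, did not exceed 0.323 CPM in any library and was not tested.

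The third question was how these genes stood in germ cells. In saline libraries all 10 were lower in germ cells than in somatic cells and all 10 passed the test (edgeR), where 42.9% of 17941 genes tested were called lower. The log2 difference, germ cells over somatic cells, was largest in size for Wt1 (-5.80 ± 0.15 SE, adjusted p = 4.56e-14) and Emx2 (-5.11 ± 0.17 SE, adjusted p = 4.33e-13). Gata4 (-4.52 ± 0.15), Amhr2 (-4.47 ± 0.17) and Nr5a1 (-4.45 ± 0.17) formed a close group. Nr2f2 (-3.75 ± 0.08), Kitl (-3.50 ± 0.20), Irx3 (-3.21 ± 0.12) and Foxl2 (-3.16 ± 0.24) followed. Irx5 stood apart at -1.31 ± 0.16 (SE, adjusted p = 1.54e-06). All 10 were called lower under every alternative tried.

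Transcripts of the 10 genes were nevertheless counted in every germ cell library, with 28 or more counts for each. To describe them, each germ cell level was expressed as a percent of the mean somatic level after the same treatment. Over the 6 germ cell libraries the median for Wt1 was 2.04% (range 1.09 to 3.08%), and for Emx2 it was 3.38% (1.72 to 7.29%). Gata4 had a median of 5.05% (2.74 to 12.7%), Nr5a1 of 5.05% (3.47 to 9.31%) and Amhr2 of 5.28% (2.18 to 10.7%). Higher medians were found for Kitl at 10.7% (3.40 to 18.7%), Irx3 at 11.7% (7.81 to 16.3%) and Foxl2 at 14.1% (3.74 to 29.4%). Within each germ cell library the percents thus ran over a wide range, and the genes did not keep their somatic proportions to one another.

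Of the 10 genes, Nr2f2 kept the most even level across germ cell libraries. Nr2f2 measured 24.6, 24.8 and 25.5 CPM in germ saline and 24.0, 24.9 and 22.2 CPM in germ dex replicates 1 to 3. Its highest percent exceeded its lowest by 1.28-fold, against 7.85-fold for Foxl2 and 5.51-fold for Kitl. Irx5 measured 6.66, 9.73 and 8.69 CPM in germ saline and 8.57, 7.43 and 9.50 CPM in germ dex, at 31.8 to 55.7% of its somatic level. The percents of Irx5 spanned 1.75-fold, next to 2.08-fold for Irx3. The ratio of Irx3 to Irx5 counts was 0.648 to 1.56 in the 6 germ cell libraries and 3.60 to 4.88 in the 6 somatic libraries, with no overlap (exact two-sided permutation test on log2 ratios, p = 0.00216, the smallest that 6 against 6 libraries allow). The test pooled saline and dex libraries and took all libraries as independent. It made no use of a possible pairing of same-numbered germ and somatic libraries, so the p-value may be too small. In the same exact two-sided permutation test, the ratio of every other gene of the 10 to Wt1 also gave p = 0.00216. The ratio of Foxl2 to Nr2f2 gave p = 0.171 (exact two-sided permutation test). The result for Irx3 to Irx5 was thus not particular to this pair. It rests on the same counts as the log2 differences of both genes given above and is not independent of them.

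**Figure D4:**
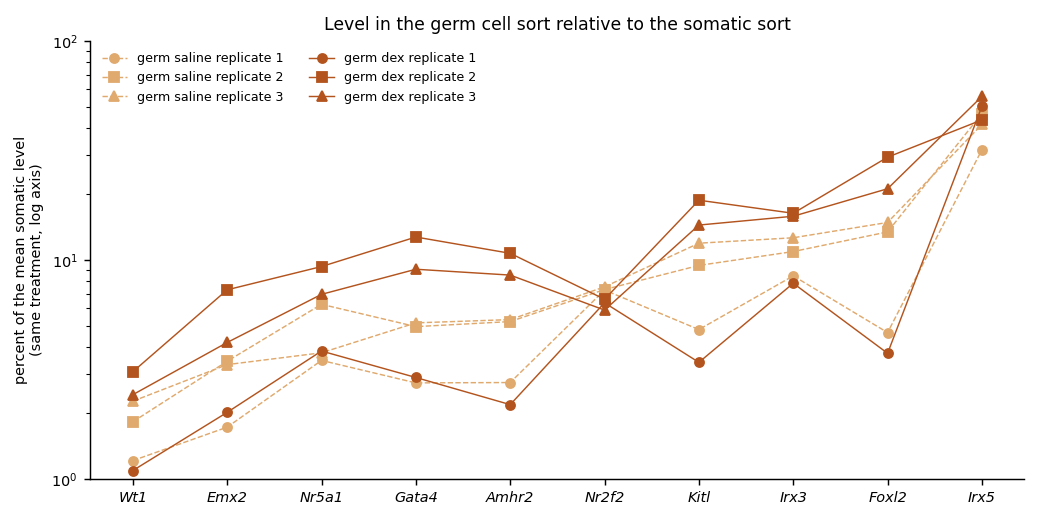
Level of each gene in each germ cell library as a percent of the mean somatic level after the same treatment, on a log axis; genes are ordered by their median, each line joins the values of 1 library, dashed for saline and solid for dex. The lines of both libraries numbered 1 run lowest for most genes, all 6 lines meet at Nr2f2, and Irx5 is highest in each library.

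The germ cell libraries numbered 1, of both treatments, held the lowest levels of 8 of the 10 genes, below each of the 4 other germ cell libraries, where 8.92% of all genes tested showed this. The exceptions were Irx5 and Nr2f2. Foxl2 measured 3.10, 8.98 and 9.89 CPM in germ saline and 2.54, 20.0 and 14.3 CPM in germ dex replicates 1 to 3. Kitl followed the same order, with 10.3, 20.3 and 25.7 CPM in germ saline and 6.56, 36.1 and 27.7 CPM in germ dex. For both genes the 2 highest libraries were germ dex replicates 2 and 3 and the lowest was germ dex replicate 1. The same standing was found for 4 of 11 other pregranulosa genes, 3 of 13 stromal genes and 1 of 6 surface epithelium genes. It was also found for 2 of 6 macrophage genes, 2 of 10 steroidogenic genes and 1 of 6 perivascular genes. None of the 12 bipotential gonad genes or 6 endothelial genes showed it.

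The same percent was taken for the marker lists. The median percent over the list was 4.40 to 17.5% for 11 other pregranulosa genes in the 6 germ cell libraries, and 3.57 to 11.7% for the 10 genes. It was 0.963 to 1.61% for 13 stromal genes, 0.623 to 1.33% for 6 surface epithelium genes, 1.22 to 2.29% for 6 perivascular genes and 0.0944 to 0.999% for 5 erythroid genes. Other lists were as high as the 10 genes or higher, with 7.67 to 16.5% for 12 bipotential gonad genes, 6.59 to 10.9% for 6 endothelial genes, 2.45 to 11.8% for 5 mesonephric genes, 12.2 to 55.7% for 9 Sertoli genes 14.6 to 47.0% for 10 steroidogenic genes and 57.9 to 77.6% for the 8 partner genes of KITL and AMHR2. The 4 adrenal genes, which summed to 0.291 to 10.99 CPM in any library, were too low for this percent. High percents were thus not particular to pregranulosa genes. For 6 macrophage genes the median was 4.72 ± 2.30% after saline and 12.2 ± 4.49% after dex (SD, n = 3). Their summed level in germ cell libraries was 37.4 ± 5.36 CPM after saline and 40.8 ± 7.68 CPM after dex, while in somatic libraries, the denominator, it was 202 ± 31.1 and 88.4 ± 39.1 CPM. Germ dex replicate 2 was highest and germ dex replicate 1 lowest for the 10 genes and for the other pregranulosa genes, while the stromal median was lowest in germ dex replicate 3. The part of somatic carry-over in these germ cell values was not tested.

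Dex and saline germ cells were then compared. None of the 10 genes passed the test (edgeR), where 0.208% of 16857 genes tested did, none had an unadjusted p under 0.05 (11.6% of all genes did), and DESeq2 called none. The median log2 fold change of the 10 was 0.35, beside 0.01 over all genes tested. The largest was that of Gata4, at 4.65, 8.39 and 8.74 CPM after saline and 4.69, 20.6 and 14.6 CPM after dex (0.88 ± 0.41 SE, adjusted p = 0.432, edgeR). Its dex libraries bracketed the saline libraries 2 and 3, and replicate 1 was equally low after both treatments. Without both libraries numbered 1, an alternative chosen after the data were seen, Gata4 was called higher after dex (1.04, adjusted p = 0.0297, edgeR), and without germ dex replicate 1 alone likewise (1.27, adjusted p = 0.0452). It was also called higher with no low-count filter (adjusted p = 0.000794, edgeR).

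Foxl2 gave a log2 fold change of 0.75 ± 0.54 (SE, adjusted p = 0.635, edgeR) with a 95% interval from -0.44 to 1.94, and was called only with no low-count filter (0.74, adjusted p = 0.0129). Emx2, at 1.81, 3.61 and 3.49 CPM after saline and 2.01, 7.30 and 4.20 CPM after dex, gave 0.60 ± 0.40 (SE, adjusted p = 0.606). The groups overlapped for both genes. Amhr2 measured 4.33, 8.22 and 8.40 CPM after saline and 2.81, 13.8 and 10.96 CPM after dex (0.40 ± 0.43 SE, adjusted p = 0.752). Nr5a1 measured 2.58, 4.66 and 2.80 CPM and then 2.48, 6.01 and 4.49 CPM (0.38 ± 0.33 SE, adjusted p = 0.698). The dex libraries of both genes reached below and above the saline range. Kitl gave 0.33 ± 0.45 (SE, adjusted p = 0.815). Wt1, at 5.82, 8.74 and 10.9 CPM after saline and 4.69, 13.3 and 10.4 CPM after dex, gave 0.17 ± 0.32 (SE, adjusted p = 0.875). Irx3, Irx5 and Nr2f2 gave 0.04 ± 0.26, 0.03 ± 0.19 and -0.07 ± 0.10 (SE). For Nr2f2 the 95% interval of -0.29 to 0.15 was the narrowest of the 10.

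The dex effect in germ cells was set against that in somatic cells in one model with an interaction term. None of the 10 genes passed (edgeR, where 1.62% of 19390 genes tested did), 1 had an unadjusted p under 0.05 against 15.4% of all genes, and DESeq2 called none. That gene was Gata4, whose log2 effect was higher in germ cells by 0.94 ± 0.41 (SE, adjusted p = 0.286, edgeR). It passed with the replicate block (0.89, adjusted p = 0.0308) and without germ dex replicate 1 (1.34, adjusted p = 0.00583). With no low-count filter Gata4 passed too, as did Foxl2, Kitl, Emx2 and Amhr2, each with a higher effect in germ cells. Calls over all genes also rose under that setting, to 727 among the 36214 genes with at least 1 count, against 314 in the main fit. Nr2f2 was the one gene with a negative difference, -0.23 ± 0.11 (SE, adjusted p = 0.332).

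Partners of the signalling members were measured beside them. Kit encodes the receptor of KIT ligand and measured 184, 183 and 158 CPM in germ saline and 106, 123 and 119 CPM in germ dex replicates 1 to 3. The groups did not overlap, and Kit fell by 0.58 ± 0.08 on the log2 scale (SE, adjusted p = 0.00959, edgeR). In somatic libraries Kit measured 33.6, 33.3 and 27.1 CPM after saline and 41.4, 38.1 and 40.0 CPM after dex (0.34 ± 0.10 SE, adjusted p = 0.0511, edgeR), just outside the threshold, and inside it with DESeq2 (adjusted p = 0.0481), with no low-count filter (adjusted p = 0.0241) and with the replicate block (adjusted p = 0.0386). The effect in germ cells differed from that in somatic cells by -0.94 ± 0.13 (SE, adjusted p = 0.000955, edgeR). Kitl itself passed in neither cell type.

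**Figure D5:**
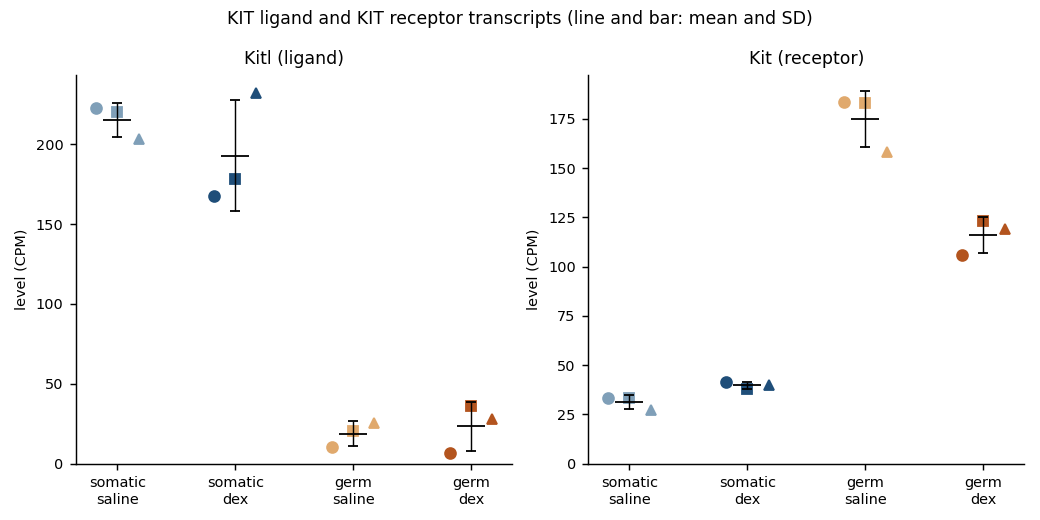
Levels of Kitl and Kit in CPM by group, with the mean and SD of 3 libraries; circles, squares and triangles are replicates 1, 2 and 3. Kitl is high in somatic libraries and its dex and saline libraries overlap, whereas the 3 germ dex libraries lie below the 3 germ saline libraries for Kit.

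Amh encodes the hormone that AMHR2 binds. It was at 0.774 to 1.13 CPM in somatic saline and 0.563 to 1.31 CPM in somatic dex libraries, a few times the floor of 3 counts. The log2 fold change after dex was 0.08 ± 0.46 (SE, adjusted p = 0.947, edgeR), with a 95% interval too wide to describe its behaviour, from -0.91 to 1.08. Amh was higher in germ cell libraries, at 3.26 to 8.10 CPM after saline (2.36 ± 0.39 SE, adjusted p = 4.46e-05, edgeR), but the gene Sf3a2 ends 318 bases before it on the same strand and stood at 91.1 CPM in germ saline libraries. Whether reads of Sf3a2 reached into Amh was not tested. Of the 8 partner genes of KITL and AMHR2, 1 rose in somatic cells after dex, Smad9, a transducer of BMP and AMH receptors, from 9.34 to 9.99 CPM to 14.6 to 16.7 CPM (0.70 ± 0.13 SE, adjusted p = 0.00424, edgeR), and none fell. In germ cells 1 of the 8 fell, Kit, and none rose.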

How the data were processed

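Poly-A RNA of 12 libraries was sequenced as read pairs. Per the labels, the authors aligned reads to mm10 with HISAT2 2.0.5 and made the deposited counts per gene with featureCounts 1.5.0-p3 (the submitters' processing notes also name DESeq2 1.20.0). The authors also deposited FPKM values, used here to compare genes with each other and once as another scaling. The strand setting, the handling of reads that map to several places and the annotation release are not given in the sources used here. The deposited fold changes and p-values of dex against saline were not used.

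Counts were tested with edgeR 4.0.16 (TMM, filterByExpr, quasi-likelihood fit, R 4.3.3, limma 3.58.1) on the groups compared, without a block, and p-values were adjusted by Benjamini-Hochberg over all genes tested, with a threshold of 0.05. DESeq2 1.42.0 was an alternative. The 95% intervals use the t distribution of the fit. CPM were scaled by TMM over the 12 libraries. The fits were tested on simulated data. Library totals were 14658503 to 18245507 counts. The 10 genes and the marker lists were chosen with earlier results of these data known. From each marker list the text names the genes called in somatic cells, at most 3 with the largest change, besides Kit, Amh, Pou5f1, Col1a1, genes overlapping the 10, and for Foxl2 and Nr2f2 the 3 most similar profiles. Of these, 1 gene is not reported here. Alternatives were RLE size factors, library totals, no low-count filter, a replicate block, 1 fit of all 12 libraries and leaving out each library. Leaving out both germ cell libraries numbered 1, and the other scalings of the germ cell percent, were chosen after seeing the data. Promoters are from RefSeq, GRCm38.p6.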

Additional observations from a re-analysis of the deposited data

Results flagged for a closer look

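Among the genes named above, 4 had a dex effect that differed between germ cells and somatic cells in the test of the difference itself (edgeR interaction term, adjusted over all genes tested), and none of them is one of the 10. The log2 effect in germ cells minus that in somatic cells was -0.61 for Insr (adjusted p = 0.0443), -2.40 for Cyp26b1 (adjusted p = 0.00545), -0.94 for Kit (adjusted p = 0.000955) and -3.56 for Dazl (adjusted p = 1.91e-10). When each of the 12 libraries was left out in turn, the call of Insr was lost in 10 cases (adjusted p up to 0.138), while those of Cyp26b1, Kit and Dazl held in all 12. No group held more than 3 libraries, so no formal test for single outlying libraries was made. Somatic dex replicate 3 and the germ cell libraries numbered 1 were described above from their levels and not by such a test.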

How the results depend on the processing

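Of 550 values of the 10 genes under an alternative, 529 stayed on their side of the threshold, 21 were newly called, and none was lost or called in the opposite direction. Of the uncalled changes of these and the other named genes, 32 turned sign. In somatic cells the number of the 10 called after dex was 0, but 1 with DESeq2, 2 with no low-count filter, 2 with the replicate block and 0 to 4 when single libraries were left out, the 4 without dex replicate 3. In germ cells it was 0, but 2 with no low-count filter, 1 without both libraries numbered 1 and 0 to 1 without single libraries. For the difference it was 0, but 5 with no low-count filter, 1 with the replicate block, 1 without both libraries numbered 1 and 0 to 1 without single libraries. The cause of these changes was not tested.

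Over all genes, 1354 were called in somatic cells, against 803 with all 12 libraries in 1 fit and 754 to 1881 without single libraries (754, 756, 888 and 856 without saline replicates 3, 2 and 1 and dex replicate 2). The highest number, 1881, was that without dex replicate 3. In germ cells 35 were called, against 158 with DESeq2, 420 with no low-count filter, 64 with all 12 libraries in 1 fit, 116 without both libraries numbered 1 and 17 to 81 without single libraries, with 17 without saline replicate 3 or dex replicate 2 and 81 without dex replicate 1. The difference had 314 calls, against 620 with DESeq2, 727 with no low-count filter and 143 to 384 without single libraries. The median germ cell percent of the 10 genes was 6.61%, 6.54% by library totals and 6.89% from FPKM.

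Replicate numbers were not treated as pairs. Deviations of same-numbered dex and saline libraries correlated at -0.00293 to 0.0826 in somatic cells and 0.00243 to 0.167 in germ cells. Same-numbered germ and somatic libraries correlated at 0.0665 to 0.108 after saline and 0.0782 to 0.121 after dex, each above all differently numbered pairs, a hint from the data and not the design. With the replicate block, 1520 genes were called in somatic cells, 49 in germ cells and 389 for the difference.

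In germ cells the 10 genes had 28 to 559 counts a library. In simulated data of this comparison the test recovered 64.9% of genes changed by 0.5 and 100% of those changed by 1 on the log2 scale. Only genes averaging at least 100 counts were changed, and every gene was given the same dispersion. Recovery was thus not tested at the lower counts or the larger spreads found among the 10 genes. The 10 genes varied between germ cell libraries of 1 group by a coefficient of variation of 1.86 to 72.4%.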
